A study of Rattus norvegicus with 6 samples.

Results

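Expression of 9 genes that build the epithelial basement membrane was followed in NRK-52E, a cell line derived from tubule epithelium of the rat kidney. The genes encode the laminin chains α5 (Lama5), β1 (Lamb1), β2 (Lamb2), β3 (Lamb3) and γ1 (Lamc1), the collagen IV chain α1 (Col4a1), the linkers nidogen 1 and 2 (Nid1, Nid2) and the proteoglycan perlecan (Hspg2). They were taken by name, as all probe sets paired with exactly 1 of these symbols in the platform annotation, which gave 14 of 20826 probe sets with a single gene, and 9 of 14217 genes. Where a gene had several probe sets, the one brightest on average over the 6 arrays stands for it, and the others are described as well.

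The study has 6 Affymetrix rat arrays in 2 groups of 3, which the labels call biological replicates. All cells were NRK-52E cells given 10 ng/mL recombinant TGF-β1 for 24 h, a cytokine used to induce an epithelial-mesenchymal transition. One group (shAMPKα2) had received a lentiviral hairpin RNA aimed at AMPKα2, which is a catalytic part of AMP-activated protein kinase, the cell's energy sensor, and the other (shCtrl) a control lentivirus. Both groups thus shared the cytokine and a viral vector, and cells without TGF-β1 were not analysed here. The comparison is between cells with and without the AMPKα2 hairpin, all under TGF-β1.

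A basement membrane is a thin sheet of matrix on which tubule cells rest. Laminins are secreted as trimers of 1 α, 1 β and 1 γ chain, so β and γ chains leave the cell together with an α chain, and γ1 serves most of the trimers of a mature tubule. Laminin and collagen IV form separate networks that nidogens and perlecan join, and integrins and syndecans anchor the laminin network to the cell. Type IV collagen is the main collagen of this sheet, and its α1 and α2 chains assemble together.

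The deposited values are log2 expression, and their spread over probe sets was narrower on the shAMPKα2 arrays (SD 1.76 to 1.82) than in the control (2.17 to 2.19). The size and direction of change followed the level of a gene, with a median of 0.81 at control levels of 5 to 6 and -0.84 at 10 to 11. Each member is therefore set beside genes of like control level, and under 3 further scalings of the arrays (quantile normalization, cyclic loess and centring on each array's median). Prkaa2, the gene of AMPKα2, read 6.64, 6.76 and 6.49 on the shAMPKα2 arrays and 6.83, 6.79 and 6.89 on the shCtrl arrays. All of the former lay lower, but the change of -0.21 (SE 0.09) did not pass (limma, adjusted p = 0.0552), and it passed under median centring (-0.42) but not under quantile or loess scaling (-0.05 and -0.15), and the groups are named by their labels. Prkaa2 also passed without shAMPKα2 replicate 2 (-0.27, limma, adjusted p = 0.0181). It passed without the lowest 25% of genes (limma, adjusted p = 0.0474) and with the probe sets of other genes averaged (limma, adjusted p = 0.0446). Both of those settings left its own values and its change of -0.21 as they were. Leaving out any 1 array gave -0.27 to -0.14. Of 8 epithelial markers, Krt8 (control mean 12.49) and Tjp1 (11.93) were high, while 5 lay under the lower quartile of control levels, 5.01, among them Cdh1 (4.31) and Epcam (2.97). No detection calls were used, and with 3 arrays a group the array number sets how precise these values are.

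Most of the 9 genes were lower with the AMPKα2 hairpin. Of the 9, 7 passed as lower (Hspg2 among them, whose sign turned under quantile and loess scaling), 1 (Col4a1) as higher, and Nid1 did not pass. A gene passed when its adjusted p was under 0.05 in limma, with Benjamini-Hochberg adjustment over all genes. Calls were common on these arrays: 85.1% of all genes passed, 41.5% as lower and 43.6% as higher. The 2 groups did not overlap in 8 of the 9 genes, against 87.1% of all genes. They stood apart as lower in 7 (42.5% of all genes) and as higher in 1 (44.5%). At least a 2-fold fall that passed was seen in 3, Lamb2, Lamb3 and Lamc1 (18.6% of all genes), while Col4a1, at 1.42-fold higher, did not reach the 2-fold rise that 11.6% of all genes had. The number of members called is thus near the background. Their 7 of 9 called lower is above the 41.5% of all genes, but around each member 54.1% to 81.7% of genes of like control level were called lower too. The median change of the 9 genes was -0.83 on the log2 scale (0.05 for all genes), -0.26 under quantile scaling (0.16) and -0.23 under loess scaling (0.09). Genes of like level to the laminin members had medians of -0.87 to -0.78 as deposited. Since these are bulk samples, fewer cells of a type and less RNA per cell cannot be told apart.

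**Figure D1:**
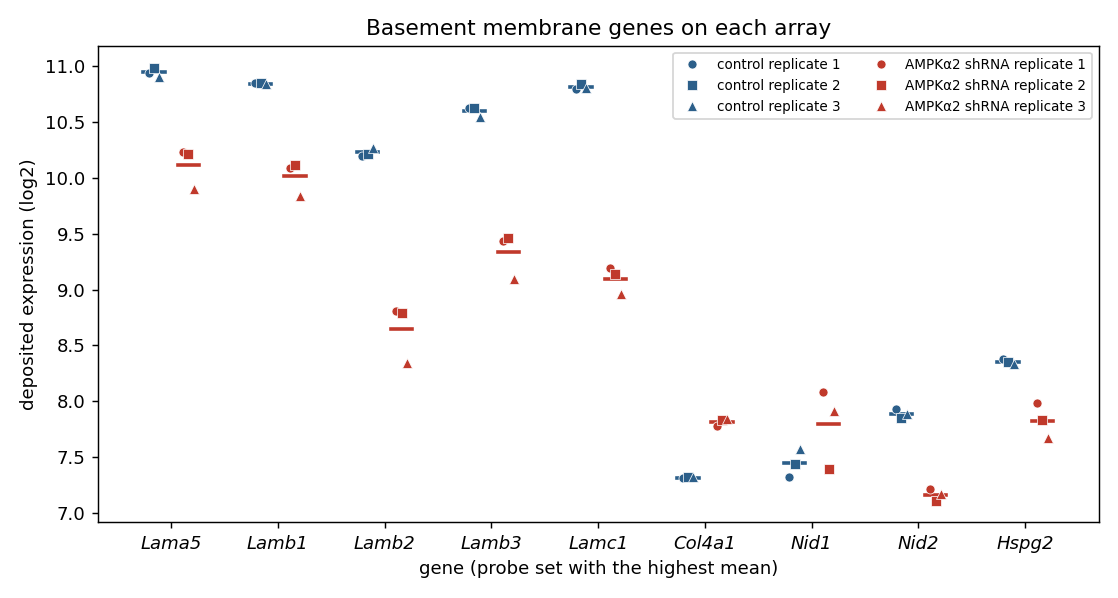
Deposited log2 expression of the 9 genes (vertical axis) on each of the 6 arrays, control in blue and shAMPKα2 in red, with the symbol giving the replicate and the bar the group mean. The 5 laminin genes, Nid2 and Hspg2 lie lower on all shAMPKα2 arrays (Hspg2 turned to 0.12 and 0.10 under quantile and loess scaling), the main probe set of Col4a1 lies higher, and Nid1 overlaps.

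All 5 laminin chains fell. The largest change was that of Lamc1 (Entrez gene 117036), the γ1 chain shared by most trimers. Its values were 9.19, 9.14 and 8.96 on the shAMPKα2 arrays and 10.80, 10.84 and 10.81 on the shCtrl arrays. The groups stood far apart, and the arrays within each group lay close together. Lamc1 fell by 1.72 on the log2 scale (SE 0.09), a 3.28-fold lower level (limma, adjusted p = 3.34e-08; 95% interval of the fold, 2.87 to 3.76).

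Among the β chains, Lamb2 (Entrez gene 25473), whose chain is typical of mature kidney basement membranes including that of the glomerulus, changed most. It stood at 8.81, 8.79 and 8.34 on the shAMPKα2 arrays and at 10.20, 10.22 and 10.27 on the shCtrl arrays. Its change of -1.58 (SE 0.12, limma, adjusted p = 5.68e-07) is a 2.99-fold lower level. Lamb3 (Entrez gene 305078), the β chain of the epithelial laminin that is joined to hemidesmosomes, read 9.44, 9.46 and 9.10 against 10.63, 10.63 and 10.55. Its change of -1.27 (SE 0.11, limma, adjusted p = 9.84e-07) is a 2.42-fold lower level. Lamb1 (Entrez gene 298941), the most widely used β chain, read 10.09, 10.12 and 9.84 against 10.85, 10.85 and 10.84. It fell less, by 0.83 (SE 0.09, limma, adjusted p = 9.41e-06), a 1.78-fold lower level. All 3 β chains therefore moved the same way, by unequal amounts.

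Lama5 (Entrez gene 140433), which encodes the main α chain of adult epithelial basement membranes, read 10.23, 10.22 and 9.90 on the shAMPKα2 arrays and 10.94, 10.99 and 10.91 on the shCtrl arrays. It changed by -0.83 (SE 0.10, limma, adjusted p = 1.91e-05), a 1.78-fold lower level. By the main probe sets, all 5 laminin genes had their lowest value on shAMPKα2 replicate 3, whose distribution was also the narrowest (SD 1.76). The other probe sets of Lamc1 and Lama5 did not have their lowest value on that array. For the main probe sets, the shCtrl arrays were tighter than the shAMPKα2 arrays. With any 1 array left out, the laminin changes ranged from -1.76 to -1.65 for Lamc1, -1.66 to -1.43 for Lamb2, -1.34 to -1.16 for Lamb3, and -0.88 to -0.72 for Lama5.

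The upstream sequences of laminin members that fell by different amounts were set side by side. RefSeq's promoter table (build GRCr8) held 7 of the 9 genes, all but Lamb2 and Nid2. The 250 bases before the annotated start are shown for the γ1 gene with the largest fall, Lamc1 (chr13:68051987-68052236, minus strand), and for the β chains Lamb1 (chr6:53562846-53563095, plus strand) and Lamb3 (chr13:107362303-107362552, plus strand). Capitals mark GC boxes (GGGCGG on either strand; matches may overlap one another).
Lamc1: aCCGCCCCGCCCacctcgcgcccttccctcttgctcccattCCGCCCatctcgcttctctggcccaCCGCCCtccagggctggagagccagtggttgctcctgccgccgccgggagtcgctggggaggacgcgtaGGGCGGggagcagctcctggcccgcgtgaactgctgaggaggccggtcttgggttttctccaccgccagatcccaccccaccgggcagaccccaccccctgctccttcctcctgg
Lamb1: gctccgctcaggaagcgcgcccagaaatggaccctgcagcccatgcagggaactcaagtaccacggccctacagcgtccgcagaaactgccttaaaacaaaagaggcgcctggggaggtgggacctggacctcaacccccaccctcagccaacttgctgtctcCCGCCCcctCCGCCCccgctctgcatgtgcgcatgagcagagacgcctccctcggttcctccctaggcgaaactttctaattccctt
Lamb3: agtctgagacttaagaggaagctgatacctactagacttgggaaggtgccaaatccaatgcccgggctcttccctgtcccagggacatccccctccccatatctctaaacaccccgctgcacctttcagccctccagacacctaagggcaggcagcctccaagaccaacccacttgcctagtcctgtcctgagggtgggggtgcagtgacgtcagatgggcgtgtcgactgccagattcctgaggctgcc
The Lamc1 window held 5 GC boxes and was 71.2% G and C, the Lamb1 window held 2 at 62.0%, and the Lamb3 window held 0 at 58.4%. The Lama5 window, not printed here, held 4 at 72.8%, and Lama5 and Lamb1 both changed by -0.83. A GC box was found in 6 of the 7 members with a promoter, beside 32.4% of 27457 promoter windows of the same length, whose median G and C content was 52.0%. Other letters were searched on both strands as well. The SMAD box CAGAC lay in 3 of the 7 (42.8% of all windows), while TGANTCA, the AP-1 site, lay in none (6.36% of all). CAGGTG, an E-box read by Snail proteins, lay in the Lama5 window among the 7 (15.6% of all), and TATAAA, the TATA box, in none (13.1% of all). These matches are letters in a window and were not tied to any binding.

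The collagen IV gene Col4a1 was measured by 2 probe sets that disagreed. The main one (Col4a1, Entrez gene 290905) read 7.78, 7.83 and 7.84 on the shAMPKα2 arrays and 7.31, 7.32 and 7.32 on the shCtrl arrays. The arrays agreed closely within each group and did not overlap between them. By this probe set Col4a1 rose by 0.50 (SE 0.08, limma, adjusted p = 0.000101), a 1.42-fold higher level with a 95% interval of 1.26 to 1.59. The other probe set of Col4a1 went against this. It read 6.56, 6.37 and 6.34 against 6.77, 6.72 and 6.73, a change of -0.32 (SE 0.09) that passed as lower (limma over all probe sets, adjusted p = 0.00812). The mean of both probe sets changed by 0.09 and did not pass (limma, adjusted p = 0.232), so these arrays gave no single direction for Col4a1.

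Col4a1 and Col4a2, the genes of the partner chains, are read away from each other from neighbouring start sites on chromosome 16. The 76 bases between those starts (GRCr8, chr16:84885521-84885596, plus strand) are printed with the 1 GC box in capitals, because both genes are measured here and share this stretch.
Col4a2-Col4a1: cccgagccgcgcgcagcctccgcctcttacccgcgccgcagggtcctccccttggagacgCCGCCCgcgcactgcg
Its G and C content was 78.9%. Col4a2, named here after its value had been seen, read 7.99, 8.02 and 7.90 against 8.13, 8.20 and 8.03 on the shCtrl arrays. Its change of -0.16 (SE 0.08) did not pass as deposited (limma, adjusted p = 0.109), was 0.49 under quantile scaling and 0.47 under loess scaling, and was -0.37 under median centring, with all 3 of these passing. As deposited, Col4a1 thus had 0.50 by its main probe set and -0.32 by the other, and Col4a2 had -0.16. Whether the 2 genes of this shared stretch differed from each other was not tested.

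Of the nidogens, which link laminin to collagen IV, Nid2 passed as lower and Nid1 did not pass. Nid2 (Entrez gene 302248) read 7.21, 7.11 and 7.17 on the shAMPKα2 arrays and 7.93, 7.85 and 7.89 on the shCtrl arrays. The groups were clearly apart, and Nid2 fell by 0.72 (SE 0.08, limma, adjusted p = 7.65e-06), a 1.65-fold lower level. Nid1 (Entrez gene 25494) read 8.08, 7.39 and 7.91 against 7.32, 7.44 and 7.57. Replicate 2 of the shAMPKα2 arrays lay among the control values, while the other two lay above them.

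The change of Nid1, 0.35 (SE 0.15), did not pass (limma, adjusted p = 0.0536), with an unadjusted 95% interval from 0.01 to 0.69. It was 0.55 without shAMPKα2 replicate 2, which passed (limma, adjusted p = 0.000889), and 0.21 without shAMPKα2 replicate 1, which did not (limma, adjusted p = 0.229). Without control replicate 3 it was 0.42 and passed (limma, adjusted p = 0.0455). The mean of both Nid1 probe sets changed by 0.33 and passed (limma, adjusted p = 0.0224). The other probe set of Nid1, at a low control level of 3.42, had a change of 0.30 that passed (limma over all probe sets, adjusted p = 0.0258) but was -0.03 and -0.05 under quantile and loess scaling.

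Hspg2 (Entrez gene 313641), which encodes the heparan sulphate proteoglycan perlecan, read 7.98, 7.83 and 7.67 on the shAMPKα2 arrays and 8.38, 8.35 and 8.33 on the shCtrl arrays. It was lower on each shAMPKα2 array. The change of -0.53 (SE 0.09) passed as deposited (limma, adjusted p = 0.000329) and under median centring (-0.74), but was 0.12 under quantile scaling and 0.10 under loess scaling, neither of which passed. Its direction therefore turned with the scaling.

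Probe sets of the same gene were compared where there was more than 1, in 4 of the 9 genes. Both probe sets of Lamc1 fell. The second read 7.57, 7.44 and 7.64 against 9.31, 9.37 and 9.41, a change of -1.81 (SE 0.09), close to the -1.72 of the first. For Lama5, a probe set at a control mean of 5.89 had a change of -0.59 (SE 0.14) that passed (limma over all probe sets, adjusted p = 0.0019). Another, at 5.54, had -0.14 (SE 0.22) with an interval from -0.63 to 0.36 and did not pass (limma over all probe sets, adjusted p = 0.578). Of the 14 probe sets, 10 passed as lower, 2 as higher and 2 did not pass. Both probe sets of Lamc1 stayed lower in all 4 scalings, and those of Nid1, 0.35 and 0.30 as deposited, were alike on that scale but not under quantile and loess scaling. The probe sets of Col4a1 opposed each other.

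**Figure D2:**
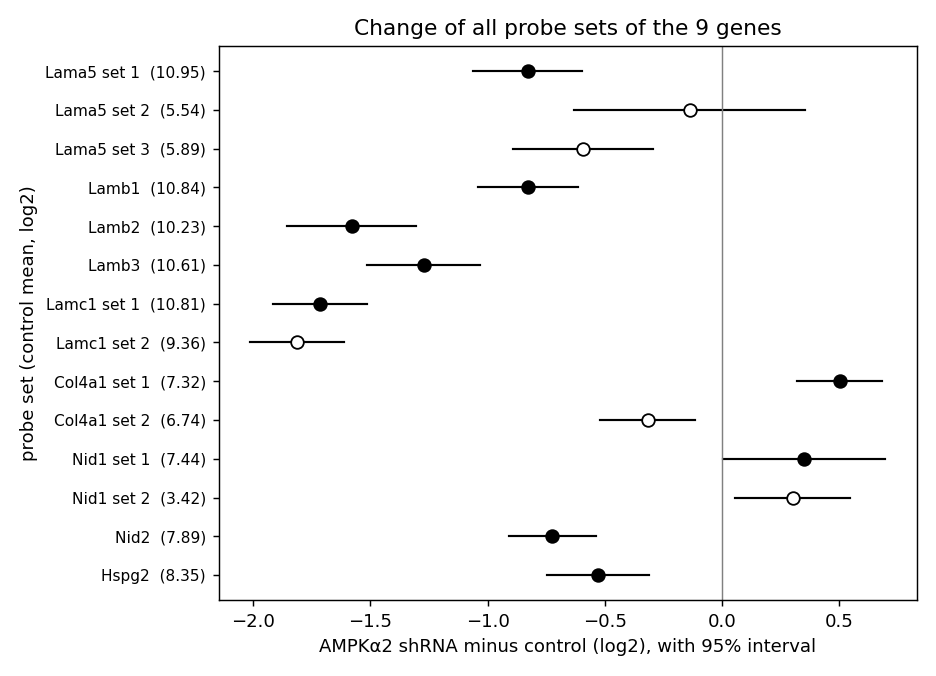
Change of each of the 14 probe sets (horizontal axis, shAMPKα2 minus control, log2) with its 95% interval from limma, filled where the probe set represents its gene and open for the others, with the control mean in parentheses. Both Lamc1 probe sets lie near -1.7 to -1.8, and those of Col4a1 lie on opposite sides of 0.

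The fall of a highly expressed gene on these arrays has to be read against genes of the same level. For each member, all genes whose control mean lay within 0.25 of its own were taken. The 288 genes around Lamc1 had a median change of -0.83 (quartiles -1.46 and -0.33), and Lamc1, at -1.72, differed from that median by -0.89, with 16.3% of those genes lower still. Lamb2 differed by -0.72 from the median of its 518 genes, with 20.1% lower still. Lamb3 differed by -0.40 from that of its 367 genes, with 33.0% lower still. Both Lamc1 and Lamb2 were thus outside the quartiles of like genes, and Lamb3 was inside them.

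Lamb1 and Lama5 were at the middle of their level. The median of the 289 genes around Lamb1 was -0.83, the same as its own change, and Lama5 differed by -0.05 from the median of 266 genes. When genes were matched on the mean of all 6 arrays, Lama5 and Lamb1 both differed from the median by -0.38, Lamb3 by -0.68, Lamb2 by -0.86 and Lamc1 by -1.13. The distance below like genes thus rested on the matching for Lama5, Lamb1 and Lamb3.

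In the middle of the range, the 1032 genes around the main probe set of Col4a1 had a median change of -0.30 (quartiles -0.86 and 0.17). That probe set lay 0.80 above this median, higher than 84.5% of those genes. The other probe set of Col4a1, at a control mean of 6.74, changed by -0.32. Nid1 lay 0.68 above the median of 1045 genes and higher than 83.2%. Nid2 differed from its 1047 genes by -0.16, and by -0.10 without shAMPKα2 replicate 2. Hspg2 differed from its 1146 genes by 0.12, and by 0.06 without shAMPKα2 replicate 1. The share of like genes called lower was 81.6% around Lamc1, 79.7% around Lamb2 and 67.4% around Nid2, so a call as lower was common at those levels.

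**Figure D3:**
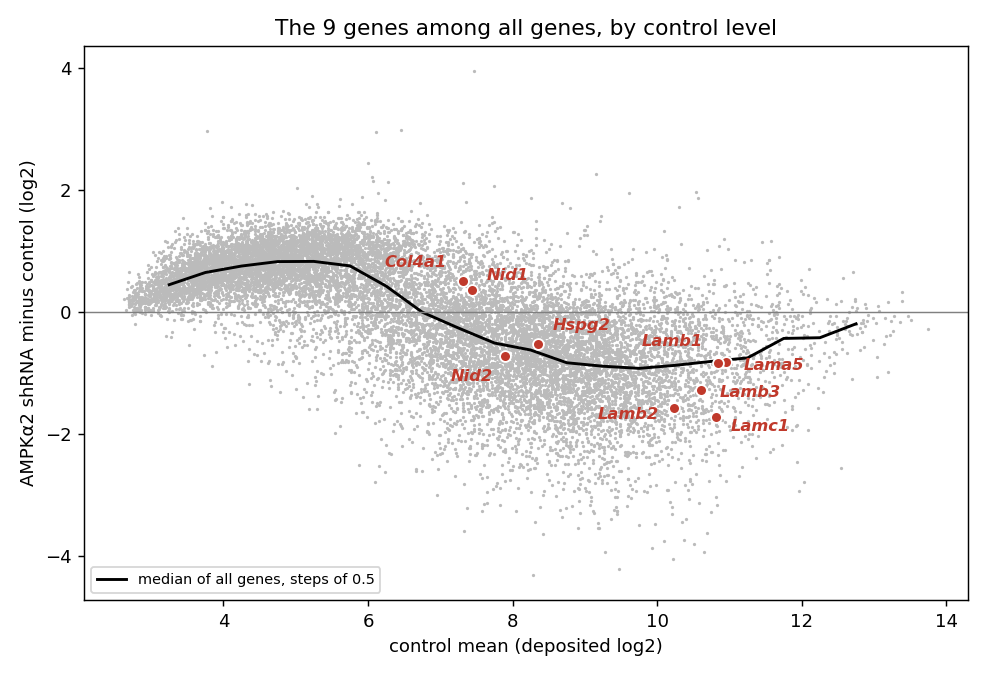
Change of all 14217 genes (grey, shAMPKα2 minus control, log2) against the control mean, with the median in steps of 0.5 (black line) and the 9 genes in red. Lamc1, Lamb2 and Lamb3 lie below the line, Lama5 and Lamb1 on or near it, and Col4a1 and Nid1 (main probe sets) above it.

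Scaling changed the size of most changes, and the direction of 1 gene, Hspg2. Under quantile scaling 6 of the 9 passed as lower (28.9% of all genes) and 2 as higher (43.8%), with 72.7% of all genes called. Loess scaling gave 6 lower (31.5% of all genes) and 2 higher (40.2%), with 71.8% called. Median centring gave 7 lower (48.2% of all genes) and 1 higher (35%), with 83.1% called. In all 4 scalings, 6 of the 9 genes passed as lower (26.4% of all genes did) and 1 passed as higher (25.5%). Lamc1 had -1.06 under quantile scaling, -1.05 under loess scaling and -1.93 under median centring. Lamb2 had -0.85, -0.87 and -1.80, and Lamb3 had -0.63, -0.61 and -1.49. Lama5 shrank to -0.28 and -0.23 after the first 2, and Lamb1 to -0.26 and -0.21, all of which still passed. Col4a1 grew to 1.02 and 0.98 and was 0.29 under median centring, for the main probe set, while its other probe set stayed at -0.25, -0.35 and -0.53. Nid1 rose by 0.88 and 0.84 under quantile and loess scaling, which passed, and had 0.14 under median centring, which did not. Lamc1 had the largest fall of the 9 in each of the 4 scalings.

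**Figure D4:**
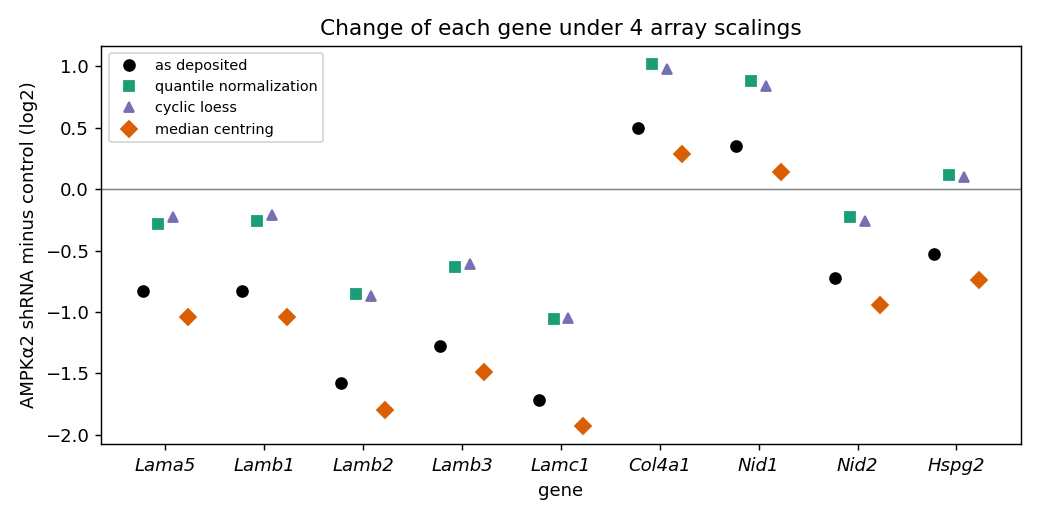
Change of each gene (vertical axis, shAMPKα2 minus control, log2) as deposited and after 3 scalings of the arrays. The laminin genes and Nid2 stay below 0 in all 4, Col4a1 and Nid1 (main probe sets) stay above 0, and Hspg2 lies on both sides.

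Members that can take the same place in an assembly were compared within each array, in 4 pairs, as the log2 difference between their probe sets. Probe sets differ in brightness for the same amount of RNA, so only the shift of this difference between groups is read. With 3 arrays against 3 the smallest p that the exact permutation test can give is 0.1, and all 4 pairs gave it (2-sided, exact permutation, adjusted p = 0.1), so none could pass. Lamb1 minus Lamb2 was 1.28, 1.33 and 1.50 on the shAMPKα2 arrays and 0.65, 0.63 and 0.57 on the shCtrl arrays, a shift of 0.75. The arrays did not overlap, and the shift was 0.59 under quantile scaling and 0.66 under loess scaling. Lamb1 minus Lamb3 shifted by 0.45 and Lamb2 minus Lamb3 by -0.31. Lamb2 thus changed most and Lamb1 least of the β chains in each scaling tried.

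Nid1 minus Nid2 was 0.86, 0.28 and 0.73 on the shAMPKα2 arrays and -0.61, -0.42 and -0.32 on the shCtrl arrays. This was the widest shift of the 4, 1.07, with 1.11 under quantile as well as loess scaling. The difference of the 2 nidogen readings was thus higher on each shAMPKα2 array than on any shCtrl array, although Nid1 alone did not pass.

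Genes that work with the 9 were taken from lists fixed by function. Of 9 measured other laminin and collagen IV chains, 5 passed as higher (43.6% of all genes), 1 as lower (41.5%) and 3 did not pass. Their median change was 0.63 beside 0.05 for all genes. Several of these chains had low control levels, and genes at control levels of 4 to 5 had a median change of 0.79. Lama3, the α chain that pairs with β3, was the one that fell, by 1.51 (SE 0.18), from 9.05 ± 0.13 (SD, n = 3) to 7.53 ± 0.43. Lama2 and Lama1, the α chains of muscle and of early epithelium, rose by 1.46 and 1.25 from control means of 4.23 and 5.31. Genes of like control level had medians of 0.76 and 0.83. Lamc3, named after its value had been seen, rose by 1.11 from 6.69, where like genes had a median of 0.03. The other rises, of Col4a6 and Col4a4, differed by 0.06 and -0.11 from genes of like level. Col4a4 did not pass under quantile or loess scaling.

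Of 14 measured basement membrane receptors, 2 rose and 8 fell, while 4 did not pass, beside 43.6% and 41.5% of all genes. Quantile scaling gave 6 higher (43.8% of all genes) and 7 lower (28.9%), and loess scaling 7 of each (40.2% and 31.5%). Their median was -0.53 as deposited, -0.12 under quantile scaling and 0.00 under loess scaling. Itga6, the integrin α6 subunit that binds laminins, fell by 2.40 (SE 0.10), from 10.29 ± 0.02 (SD, n = 3) to 7.88 ± 0.20, and differed by -1.53 from genes of like level. Of its other probe sets, those with -1.45 and -2.56 passed as lower, and a further one, at a control mean of 4.44, passed as higher at 0.62. Itgb4 and Itga3, named for their role as laminin receptor subunits after their values had been seen, changed by -1.11 and -0.92, and both passed. Itga3 had -0.35 and -0.30 under quantile and loess scaling and differed by -0.09 from genes of its level. Itgb4 had -1.27 and -1.44 under those scalings and differed by -1.18 from genes of its level. Sdc4, a syndecan, fell by 1.57 and differed by -1.16 from genes of like level. Itga7 and Ddr2, a laminin-binding integrin subunit and a collagen receptor, rose by 0.93 and 0.86. Ddr2 had 0.41 and 0.33 under quantile and loess scaling and lay 0.14 above the like-level median of 0.72.

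The 11 measured linkers on the cytoplasmic side of integrins had 9 lower, 1 higher and 1 that did not pass as deposited. Under both quantile and loess scaling 4 were lower, 5 were higher and 2 did not pass. Of all genes 41.5% were lower and 43.6% higher as deposited. These shares were 28.9% and 43.8% under quantile scaling, and 31.5% and 40.2% under loess scaling. Lims1 and Parva, which form a complex with integrin-linked kinase, changed by -2.47 and -1.92, and both by -1.75 under loess scaling. The other probe set of Lims1, at a control mean of 5.40, rose by 0.50, and that of Parva, at 7.12, fell by 0.65. Zyx, which encodes the focal adhesion protein zyxin, rose by 0.23, but its change of 0.01 under median centring did not pass, nor did those of 0.18 to 0.24 without shAMPKα2 replicate 1 or without any 1 shCtrl array. The median of this list, -0.50, was 0.23 under quantile scaling and 0.20 under loess scaling.

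Of 16 other basement membrane components, 9 rose (43.6% of all genes) and 4 fell (41.5%), while 3 did not pass. Their median was 0.43. Col18a1, a basement membrane collagen, and Fbln2, a fibulin that binds laminin, rose by 1.45 and 1.44. Genes of like control level had medians of 0.82 and 0.04. The other probe set of Col18a1, at a control mean of 5.23, rose by 0.86. Agrn, a heparan sulphate proteoglycan like perlecan, had -0.66, which was 0.10 under quantile scaling and 0.06 under loess scaling, neither of which passed, much as for Hspg2. Tinagl1 fell by 0.59, and its changes of -0.16 and -0.06 after those scalings did not pass.

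Of 14 genes of collagen folding and secretion, 5 rose (43.6% of all genes), 7 fell (41.5%) and 2 did not pass as deposited. Quantile scaling gave 8 higher (43.8% of all genes) and 2 lower (28.9%). Loess scaling gave 10 higher (40.2%) and 1 lower (31.5%), so the balance of calls turned. The median of -0.11 turned to 0.33 under quantile scaling and 0.31 under loess scaling. Serpinh1, the collagen chaperone, rose by 0.90 and lay 1.46 above genes of its level, and Colgalt1, a collagen galactosyltransferase, rose by 0.62. Pdia3 fell by 0.73, and P4ha1, a prolyl hydroxylase subunit, had -0.64, with 0.02 under quantile scaling and 0.01 under loess scaling.

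Of 17 genes of basement membrane proteolysis, 8 rose (43.6% of all genes) and 6 fell (41.5%), while 3 did not pass. Their median of 0.11 was -0.10 under median centring. Hpse, the heparanase that cuts the sugar chains of perlecan, fell by 2.56 (SE 0.14), and the inhibitor Timp1 fell by 2.45 (SE 0.08). Hpse and Timp1 differed by -1.67 and -1.89 from the medians of genes of like control level. Timp3 and Mmp2, an inhibitor held in the matrix and a collagen IV-cleaving protease, rose by 1.48 and 1.42. For Timp3 and Mmp2, genes of like control level had medians of 0.69 and 0.83. The other probe sets of Timp3 rose by 1.48, 1.17 and 0.64, and that of Mmp2 by 1.06.

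**Figure D5:**
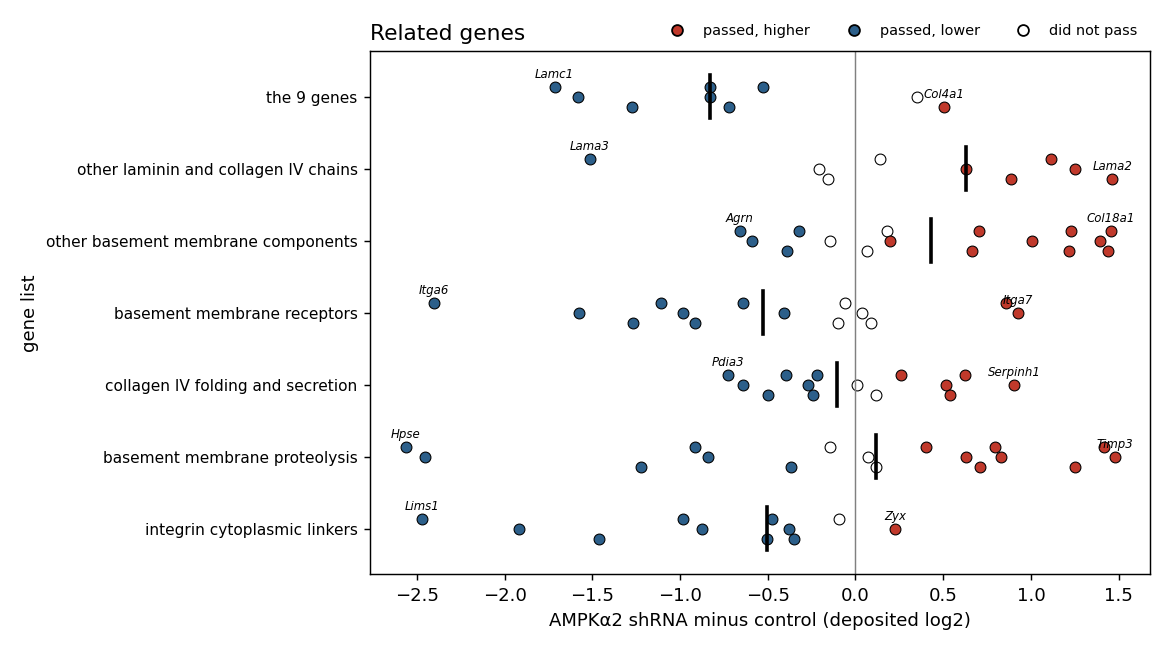
Change of each measured gene (horizontal axis, shAMPKα2 minus control, log2) in the 9 genes and 6 related lists, red where it passed as higher, blue as lower and white where it did not pass, with a black bar at the median. As deposited, receptors and linkers lie mostly below 0 (the linkers' median was 0.23 under quantile scaling), and other laminin and collagen IV chains mostly above.

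Markers of other cell types were mostly higher as deposited, where 43.6% of all genes were called higher and the median change was 0.79 at control levels of 4 to 5 and 0.81 at 5 to 6. All 7 fibroblast and mesangium markers passed as higher, with summed log2 levels of 46.9 to 47.7 on the shAMPKα2 arrays and 38.5 on the shCtrl arrays. Their control means ran from 2.83 (Lum) to 9.21 (Col3a1). Col1a1 rose by 2.98 from a control mean of 6.46, Col3a1 by 1.49 and Lum by 0.57. Of 5 measured endothelial markers 4 passed as higher and 0 as lower (sums of 24.0 to 25.2 against 20.6 to 21.6), and all 5 leukocyte markers passed as higher (27.8 to 28.6 against 23.4 to 23.6). Tubule markers rose as well, 7 of 8 for the proximal tubule and 6 of 7 for the distal tubule and collecting duct, while of 4 podocyte markers 2 were higher and 1 lower. Of the 8 epithelial markers 4 passed as higher and 2 as lower, Tjp1 (-1.86) and Krt8 (-0.25). Tjp1 was lower in all 4 scalings, while Krt8 did not pass under quantile or loess scaling. The epithelial markers called higher were 1 under quantile scaling and 0 under loess scaling. Those counts were 7 and 6 for fibroblast and mesangium, 3 and 3 for endothelium, and 5 and 5 for leukocytes. They were 6 and 6 for the proximal tubule and 5 and 4 for the distal tubule and collecting duct. Of all genes, 43.8% and 40.2% were called higher under these scalings. The part of these lists in the changes of the 9 genes was not tested.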

How the data were processed

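Expression was measured on 6 Affymetrix rat arrays, 3 per group, all from NRK-52E cells under TGF-β1. Per the labels' protocols, Trizol-extracted total RNA was labelled with biotin by a one-cycle kit. The authors deposited log2 expression values, 1 per probe set and array. Background correction, summarisation and normalization are not given in the sources used here. Of 31099 probe sets, 57 array controls were left out, and 20826 of the other 31042 had 1 gene symbol, 436 several and 9780 none.

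The test was limma's (version 3.58.1, R 4.3.3; lmFit and eBayes, 2-sided) over 14217 genes, without a further filter or normalization, at an adjusted p of 0.05 (Benjamini-Hochberg). Differences are shAMPKα2 minus shCtrl. Genes named are the 9 members, in each related list up to 2 passing genes with the strongest rise and up to 2 with the strongest fall, and a few named as chosen later. The members and lists were chosen with earlier results of these data known. The fit was tested on simulated arrays in which few genes changed and change did not follow level, unlike here. That run cannot show how the fit behaves on these arrays. Alternatives were quantile normalization, cyclic loess (3 iterations), median centring, other probe set rules, low-level filters, variance models, a replicate block, leaving out each array and other thresholds. Promoter sequences are RefSeq's (GRCr8).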

Additional observations from a re-analysis of the deposited data

How the results depend on the processing

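The count of members called lower was 7 as deposited, and 3 when at least a 2-fold change was asked. The count called higher was 1 as deposited, and it was 2, with Nid1 added, after quantile normalization, after cyclic loess, without the lowest 50% of genes, with an intensity trend and with array weights. It was 0 at 2-fold, since Col4a1 rose 1.42-fold. With probe sets averaged, Col4a1 did not pass (0.09) but Nid1 did (0.33, limma, adjusted p = 0.0224), so the count called higher stayed at 1. Leaving out 1 array gave 7 lower and 1 to 2 higher. Over all genes, 5896 lower and 6199 higher became 2639 and 1654 at 2-fold, and the higher count was 3318 without the lowest 25% of genes and 1189 without the lowest 50%. Leaving out 1 array gave 5641 to 5910 lower and 5905 to 6248 higher. Among the genes whose change is given above (main probe set), those that turned sign after quantile normalization and cyclic loess were Hspg2 (0.12 and 0.10), Agrn (0.10 and 0.06), P4ha1 (0.02 and 0.01) and Col4a2 (0.49 and 0.47), and the cause was not tested. Other genes of the related lists also turned, such as Dag1 (0.34 and 0.31) and Tln1 (0.38 and 0.34), from called lower to called higher. Zyx did not pass without shAMPKα2 replicate 1 (0.18) or without any 1 of the shCtrl arrays (0.22 to 0.24). Arrays with the same replicate number did not deviate together (correlations of -0.02, 0.01 and -0.10), so the numbers were not taken as pairs. With the replicate number as a block, 2 members passed as higher, since Nid1 did (limma, adjusted p = 0.017), and 7 as lower. Signal over background was not used, so how far low readings are measured is unknown.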
